A study of Mus musculus with 8 samples.

Results

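The genes described here encode 10 chaperones and proteases of the mitochondrion: Hspd1, Hspe1, Hspa9, Trap1, Lonp1, Clpp, Clpx, Afg3l2, Yme1l1 and Oma1. They were selected by function from the 52778 features of the deposited expression table, each matched by its symbol, and all 10 were expressed enough to be tested. RNA was taken from the heart ventricles of embryonic day 11.5 mice. The 4 control libraries are labelled C57BL/6 WT, and the 4 mutant libraries come from Atf4(del7/del7) embryos, which carry on both alleles a loss of 7 bases from exon 3, made with CRISPR/Cas9, that breaks the reading frame but spares the polyadenylation signal. The mutants are labelled as a global knockout, so the allele is not limited to the heart. Their genotype field also reads C57BL/6 WT, and groups were therefore taken from the sample titles. The labels do not say whether a library holds 1 heart or several.

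Most mitochondrial proteins are made in the cytosol and are threaded, unfolded, through the membranes of the organelle. In the matrix they are pulled in and folded by the HSP70 of mitochondria (HSPA9) and by a barrel-shaped chaperonin (HSPD1) with its lid (HSPE1), while proteases of the AAA+ class (LONP1, CLPXP, and in the inner membrane AFG3L2 and YME1L1) remove what is damaged or in excess. When import or folding fails, animals raise the transcription of several of these genes, a response in which ATF4, CHOP and ATF5 have been implicated. OMA1 stands at the start of that signal, since it cuts DELE1, which then activates the eIF2alpha kinase HRI and with it the translation of Atf4.

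In ventricles of Atf4 mutants none of these transcripts was called different, and the groups overlapped for each of them. Of the 10 genes, 8 were higher and 2 were lower in the mutants, with log2 fold changes from -0.059 for Clpx to 0.19 for Oma1. None had an adjusted p below 0.05 in limma, a linear model with variances shared across genes, where 0.0386% of all 15545 tested genes did (0.00643% higher and 0.0322% lower in the mutants). The count at an unadjusted p below 0.05 was also 0, against 6.10% of all tested genes (2.65% higher and 3.45% lower). In 0 of the 10 did the mutant and control values stay apart without overlap, against 3.68% of all tested genes (1.63% higher and 2.05% lower). The median log2 fold change of the 10 was 0.038, beside -0.0033 over all tested genes, of which 48.2% were higher in the mutants. The median of the 10 ranged from 0.020 without control replicate 3 to 0.056 without control replicate 1, and was 0.025 without mutant replicate 3. All fold changes are differences of log2(TPM + 1), where TPM, the deposited unit, corrects a level for the length of the transcript and the total of the library.

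The intervals were narrow for 9 of the 10 genes. With Oma1 aside, every 95% interval of the log2 fold change lay between -0.18 and 0.16, which is a change of 11.9% down to 11.7% up. The residual SD between libraries was 0.067 on the log2 scale at the median of the 10, below the 0.103 at the median of all tested genes, and in 9 of the 10 it was below that value. By level the 10 lay between the 48.9th and 98.9th percentile of all tested genes, and genes of like level were not compared. Oma1 had the widest interval.

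Atf4 itself was read first. Its transcript rose from 112 ± 8.07 TPM (SD, n = 4) in control ventricles to 166 ± 15.1 TPM (SD, n = 4) in mutant ones, a log2 fold change of 0.57 with a limma adjusted p of 0.0430. The highest control held 121 TPM and the lowest mutant 148 TPM. No loss of Atf4 RNA marked the mutant libraries, so their genotype rests on the labels. The call was lost in 12 of 18 alternative settings, including the omission of any library other than mutant replicate 4.

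**Figure D1:**
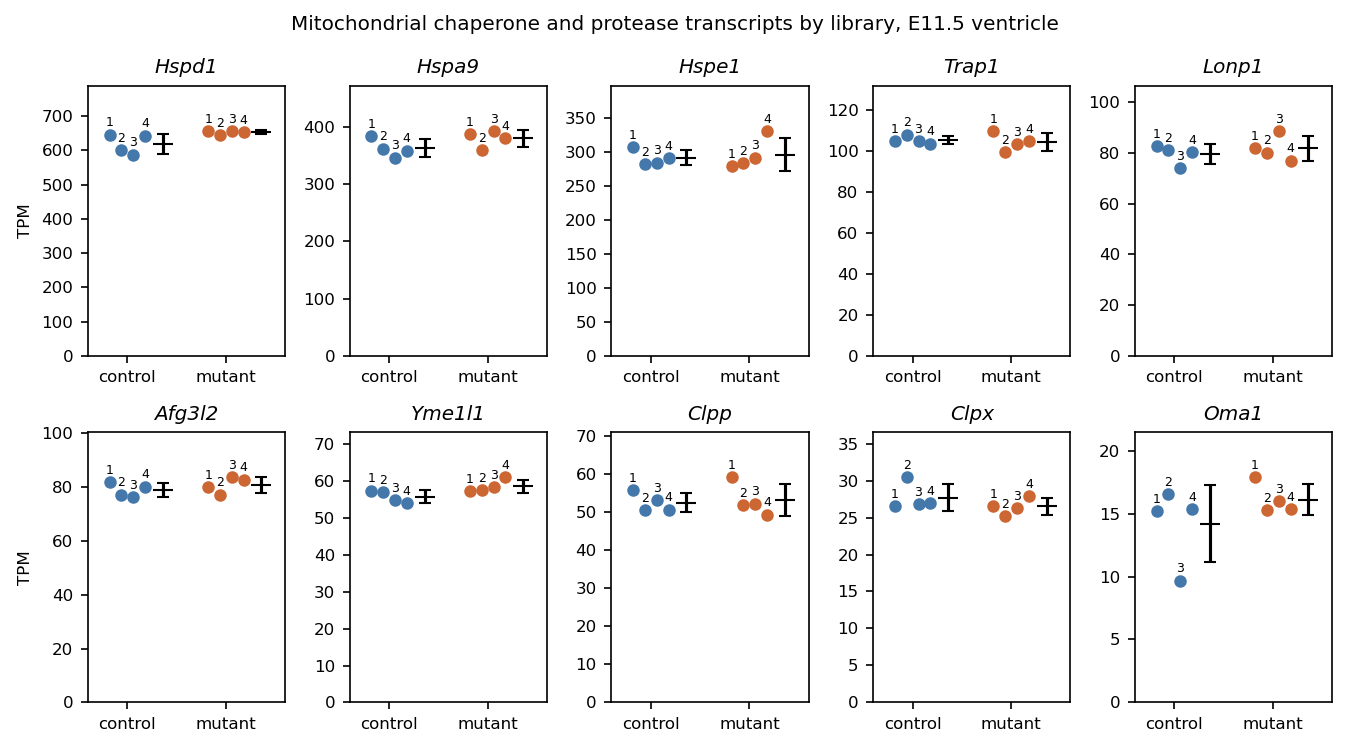
TPM of the 10 genes in each library, 1 panel per gene in order of mean level, with the y axis starting at 0. Points are libraries numbered by replicate (blue control, orange mutant), and bars give the mean and SD of 4 libraries. The groups overlap in every panel, and control replicate 3 lies far below the other libraries for Oma1, at 9.67 TPM.

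Hspd1 and Hspe1 stand head to head on chromosome 1 of GRCm38. Hspd1 (minus strand) covers bases 55077833 to 55088243 and Hspe1 (plus strand) bases 55088148 to 55091317, so that the features share 96 bases at their starts. RefSeq places a further Hspd1 start at base 55087932, with 215 bases between it and the start of Hspe1. Windows of 250 bases before and 50 after the start were held in the RefSeq promoter table (GRCm38.p6) for 8 of the 10 genes, as 9 windows. The start is that of the transcript in the table, which is the outer 5′ end of the gene for 4 windows and lies inside the gene for the other 5. In Yme1l1 and Oma1 it lies 1063 and 1971 bases inside, so the outer 5′ ends of these genes were not searched. Both strands were searched for the composite C/EBP-ATF element TGATGNAA, to which ATF4 binds with a C/EBP partner, and for the full cyclic AMP response element TGACGTCA. The letters GAANNTTC, a pair of heat shock element units, the palindromic NRF1 motif and the GC box GGGCGG were searched in the same way. The opposite order of the heat shock units, and longer runs of them, were not searched. The composite element was in 0 of the 9 windows, beside 3.97% of all 32851 windows, and the NRF1 site in 0, beside 0.971%. The heat shock pair was found in the windows of Hspd1 and Hspe1 alone, as 1 shared match, beside 7.86% of all windows. In the stretch printed below, a further unit stands on each side of this pair at the same spacing. The percentage counts windows with the pair, and how many windows hold such a longer run was not tested. TGACGTCA was found in the Trap1 window alone, beside 1.79%, with 39 bases between it and the start in the table (base 4077810) and 9 between it and the outer end of the gene. GC boxes were in 8 of the 9 windows, beside 35.7%, Clpp being the exception, and the Trap1 CRE and GC box do not overlap. These matches describe letters only. The following stretches are shown for the shared heat shock pair of the chaperonin genes, for the CRE before Trap1, and for Lonp1, a gene described as ATF4-responsive in other cells. Capitals mark GAANNTTC, TGACGTCA and the GC box (on the reverse strand) in turn. They lie at chr1:55088053-55088082 (plus strand, within a noncoding exon of 1 annotated Hspd1 transcript), chr16:4077841-4078060 (minus strand) and chr17:56626904-56627153 (minus strand).
Hspd1-Hspe1 interval: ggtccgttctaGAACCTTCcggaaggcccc
Trap1: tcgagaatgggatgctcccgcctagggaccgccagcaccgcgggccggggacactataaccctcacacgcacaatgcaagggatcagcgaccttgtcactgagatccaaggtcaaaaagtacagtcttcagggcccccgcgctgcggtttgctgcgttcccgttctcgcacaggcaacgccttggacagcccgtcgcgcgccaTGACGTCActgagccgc
Lonp1: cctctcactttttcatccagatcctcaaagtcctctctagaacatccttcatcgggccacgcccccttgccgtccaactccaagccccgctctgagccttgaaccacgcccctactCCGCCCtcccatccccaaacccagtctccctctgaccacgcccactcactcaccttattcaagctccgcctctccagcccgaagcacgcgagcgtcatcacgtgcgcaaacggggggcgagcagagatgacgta

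Hspd1, the chaperonin barrel, was the most abundant of the 10 transcripts. Controls 1 to 4 held 646, 601, 588 and 643 TPM, and mutants 1 to 4 held 656, 644, 657 and 653 TPM. The mutants were tightly grouped, and 3 of the 4 lay above every control, while mutant replicate 2 lay just below control replicate 1. Means were 619 ± 29.4 TPM for controls and 652 ± 5.75 TPM for mutants (SD, n = 4). Its log2 fold change of 0.076 had a 95% interval from -0.0071 to 0.16 and the smallest p of the 10 genes (limma unadjusted p of 0.0687, adjusted p of 0.841). Among 5 features named as processed copies of Hspd1, Hspd1-ps3 alone was well expressed, at 44.3 TPM on average, and how reads shared with it were divided is not stated. With the copies added to Hspd1 the log2 fold change was 0.087 (limma p of 0.0273, or 0.806 once adjusted) and the groups no longer overlapped, an alternative chosen after the data were seen.

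Hspe1, the lid of the same chaperonin, held 307, 283, 285 and 291 TPM in the controls and 279, 284, 292 and 331 TPM in the mutants. The groups overlapped throughout, with the mutants holding both the lowest and the highest library. The log2 fold change was 0.022 (95% interval from -0.10 to 0.15, limma adjusted p of 0.977). Without mutant replicate 4, the highest library, it was -0.032. Across the 8 libraries the log2 levels of Hspd1 and Hspe1 had a Pearson r of 0.362 (exact permutation p of 0.369) and a Spearman rho of 0.262 (exact permutation p of 0.536), both two-sided. Without control replicates 2 and 3, which lay farthest from the median of Hspd1, r was 0.0312 (exact permutation p of 0.961). After the group means were subtracted r was 0.361 (exact permutation p of 0.379). No relation between the transcripts of this head-to-head pair was thus detectable over 8 libraries.

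Trap1, the HSP90 of mitochondria (chromosome 16, bases 4039971 to 4077840, minus strand), the gene with the CRE printed before its start, was the most even of the chaperones between the groups. It held 105, 108, 105 and 103 TPM in the controls and 110, 99.5, 103 and 105 TPM in the mutants. Its difference, -0.013 on the log2 scale, had a 95% interval from -0.093 to 0.068 (limma adjusted p of 0.981). Its sign turned without mutant replicate 2, to 0.0096. It shares 54 bases at its 3′ end with Dnase1 on the opposite strand, which held at most 6.20 TPM.

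Hspa9, the matrix HSP70 that drives import and folding (chromosome 18, bases 34937414 to 34954351, minus strand), followed Hspd1 in level. Controls held 383, 362, 345 and 358 TPM and mutants 387, 359, 392 and 380 TPM. Control replicate 1 exceeded mutant replicates 2 and 4, which both lay within the control range. Means were 362 ± 15.5 TPM for controls and 379 ± 14.5 TPM for mutants (SD, n = 4). A log2 fold change of 0.068 had a 95% interval from -0.024 to 0.16 (limma unadjusted p of 0.129, adjusted p of 0.861). The 2 small features on the same strand inside Hspa9, Gm22200 and Gm26109, averaged 2.10 and 2.47 TPM.

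Among the matrix proteases, Lonp1 encodes the AAA+ protease that degrades oxidised proteins and the mitochondrial DNA packaging factor TFAM (chromosome 17, bases 56614297 to 56626903, minus strand). It held 82.5, 81.0, 73.9 and 80.3 TPM in the controls and 81.7, 80.0, 88.6 and 76.9 TPM in the mutants. A single mutant library, replicate 3, lay above all controls, and a single control, replicate 3, lay below all mutants. Lonp1 had a log2 fold change of 0.041 (95% interval from -0.074 to 0.16, limma adjusted p of 0.945). It was 0.0026 without mutant replicate 3, 0.0071 without control replicate 3 and 0.069 without mutant replicate 4.

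Clpp, the proteolytic chamber of the CLPXP protease (chromosome 17, bases 56990264 to 56996371, plus strand), held 55.8, 50.6, 53.2 and 50.7 TPM in the controls. The mutants held 59.2, 51.9, 52.3 and 49.4 TPM, so that their range spanned that of the controls. Clpp had a log2 fold change of 0.015 (95% interval from -0.12 to 0.15, limma adjusted p of 0.987). Its sign rested on single libraries: it was -0.0030 without control replicate 2, -0.0018 without control replicate 4 and -0.036 without mutant replicate 1.

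Clpx, the unfoldase that feeds CLPP (chromosome 9, bases 65294251 to 65330658, plus strand), was the gene with the largest downward difference. Controls held 26.5, 30.4, 26.8 and 27.0 TPM and mutants 26.6, 25.2, 26.3 and 27.9 TPM. Control replicate 2 stood above the other 7 libraries. The log2 fold change was -0.059 (95% interval from -0.18 to 0.065, limma adjusted p of 0.928), and it was -0.014 without that library and -0.036 without mutant replicate 2.

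Of the inner membrane proteases, Afg3l2 encodes the subunit of the m-AAA protease that faces the matrix and can work alone or with SPG7 (chromosome 18, bases 67404764 to 67449192, minus strand). Controls held 81.9, 77.2, 76.3 and 80.2 TPM and mutants 79.9, 77.2, 83.6 and 82.8 TPM. Mutant replicates 3 and 4 exceeded all controls, and the other 2 lay within their range. Afg3l2 had a log2 fold change of 0.035 (95% interval from -0.051 to 0.12, limma adjusted p of 0.937). It was 0.019 without mutant replicate 3 and 0.020 without control replicate 3, and 0.053 and 0.057 without control replicate 1 and mutant replicate 2.

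Yme1l1, the i-AAA protease that faces the intermembrane space and trims OPA1 (chromosome 2, bases 23155442 to 23199260, plus strand), varied least. Controls held 57.5, 57.1, 54.8 and 54.1 TPM and mutants 57.3, 57.6, 58.4 and 61.0 TPM. In it 3 of the 4 mutants exceeded every control, and mutant replicate 1 lay just below control replicate 1. Its log2 fold change of 0.068 had a 95% interval from -0.015 to 0.15 (limma unadjusted p of 0.0964, adjusted p of 0.843). Mastl, at 10.3 to 11.8 TPM, shares 583 bases with its 5′ end on the opposite strand, and whether the authors' values respect strand is not stated.

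Oma1, the stress-activated metalloprotease that cuts OPA1 and DELE1 (chromosome 4, bases 103311875 to 103371869, plus strand), was the least abundant and least precise of the 10. Controls held 15.2, 16.6, 9.67 and 15.4 TPM and mutants 17.9, 15.3, 16.0 and 15.4 TPM. With control replicate 3 aside, controls and mutants occupied nearly the same range. Its log2 fold change of 0.19 had a 95% interval from -0.13 to 0.52 (limma adjusted p of 0.898). It was 0.033 without control replicate 3, so that the largest difference among the 10 rested on that library.

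**Figure D2:**
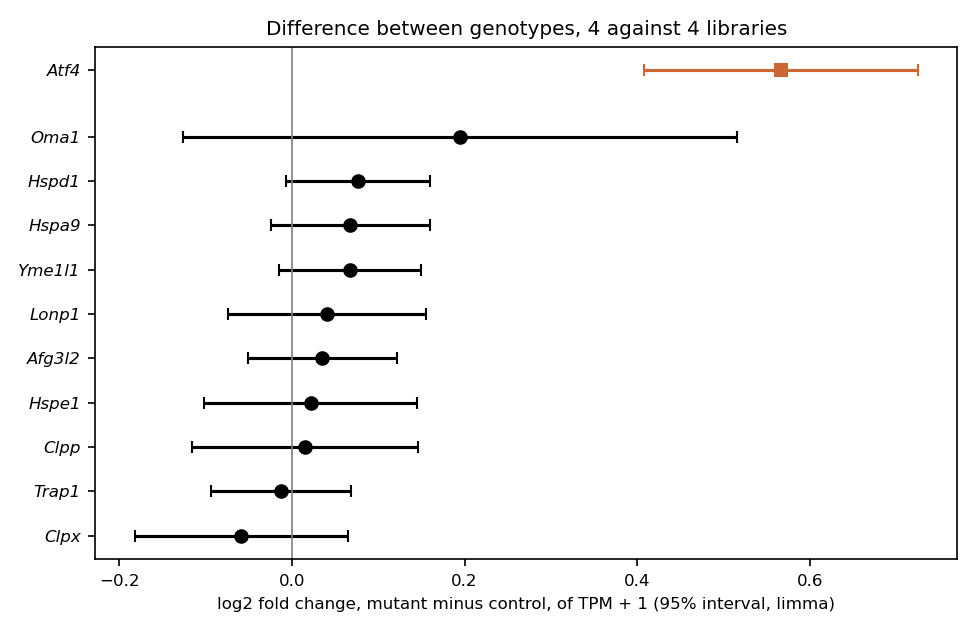
Log2 fold change (mutant minus control, TPM + 1) of the 10 genes as black points with 95% limma intervals, and of Atf4 as an orange square. All 10 intervals include 0, and that of Oma1, from -0.13 to 0.52, is the widest.

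The levels of the 10 spanned 41.9-fold, from Hspd1 at 636 TPM to Oma1 at 15.2 TPM as means of 8 libraries. Hspa9 followed Hspd1 at 371 TPM, Hspe1 at 294 TPM and Trap1 at 105 TPM, and none of these neighbours overlapped in any library. Lonp1 at 80.6 TPM and Afg3l2 at 79.9 TPM overlapped in range, Lonp1 being higher in 6 of 8 libraries, and could not be ordered. Yme1l1 at 57.2 TPM and Clpp at 52.9 TPM also overlapped, with Yme1l1 higher in 7 of 8 libraries. Clpx at 27.1 TPM and Oma1 stood apart below them. The chaperones thus outranked the proteases in every library. Hspd1 lay at the 98.9th percentile of all tested genes by level and Oma1 at the 48.9th.

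Transcript ratios of partner subunits overlapped between the genotypes. Hspd1 exceeded its lid Hspe1 by 2.13 ± 0.0591 in control and 2.21 ± 0.166 in mutant libraries (ratio of TPM, SD, n = 4). Clpp exceeded Clpx by 1.91 ± 0.188 and 2.01 ± 0.191, and Afg3l2 exceeded Spg7, the other m-AAA subunit, by 1.39 ± 0.0752 and 1.49 ± 0.102. Hspa9 exceeded Grpel1, its nucleotide exchange factor, by 9.37 ± 0.454 and 9.91 ± 0.268. In each of the 4 ratios the groups overlapped, and the mean was higher in the mutants. That direction was not general. The mean ratio of Hspa9 to Dnaja3 was 7.45 in either group, and that of Lonp1 to Clpp 1.51 in controls and 1.54 in mutants. Afg3l2 to Yme1l1 was 1.41 in controls and 1.38 in mutants, and Yme1l1 to Oma1 4.10 and 3.65. No test was made of these ratios. The transcripts of the mitochondrial HSP70 and HSP90 were less abundant than those of the counterparts compared. The ratio of the cytosolic HSP70 Hspa8 to Hspa9 was 4.19 to 4.697 over the 8 libraries, and that of the endoplasmic reticulum HSP70 Hspa5 to Hspa9 was 1.86 to 2.04. Over Trap1 the ratio was 17.8 to 20.2 for cytosolic Hsp90ab1 and 6.31 to 8.02 for Hsp90b1 of the endoplasmic reticulum. These ratios depend on the counterpart picked. Hsp90aa1, also a cytosolic HSP90, held 478 TPM in control and 489 TPM in mutant libraries on average, beside 105 TPM for Trap1. The cytosolic HSP70 genes Hspa1a (1.66 and 1.62 TPM) and Hspa1b (1.54 and 1.59 TPM) lay below Hspa9. For the chaperonin a single subunit was compared, and Hspd1 exceeded Tcp1, a subunit of the cytosolic chaperonin, by 1.75 to 1.94. That chaperonin has further subunits, encoded by the Cct genes, which were not added, so the 2 whole chaperonins were not compared.

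**Figure D3:**
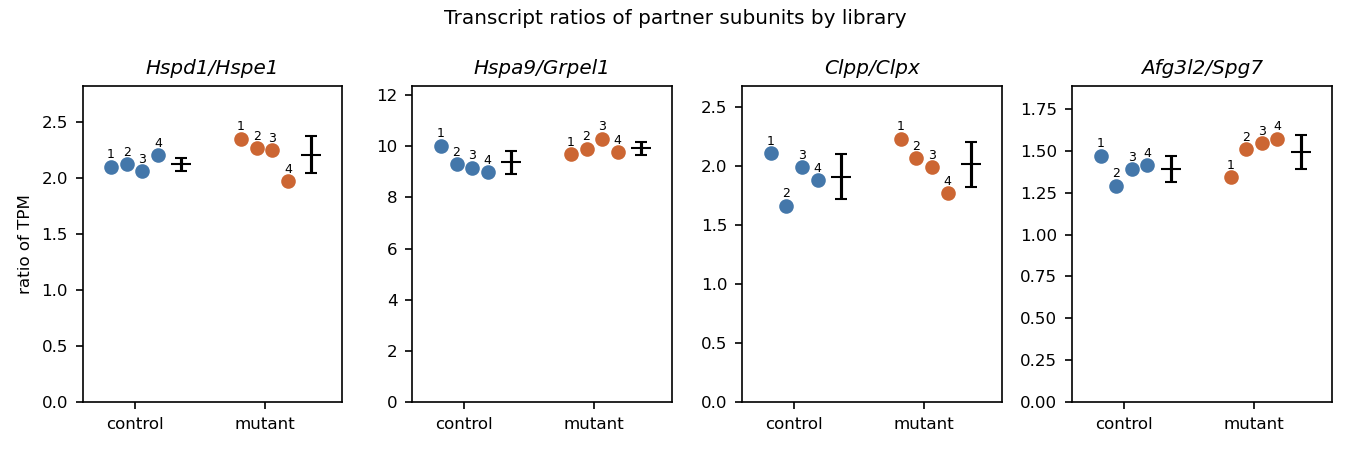
Ratios of TPM between partner subunits in each library (points numbered by replicate, blue control, orange mutant, bars mean and SD of 4), with y axes starting at 0. Groups overlap in all 4 panels, with Hspd1 to Hspe1 between 1.97 and 2.35.

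The other genes of mitochondrial protein quality control were read from lists. Of 12 genes listed as co-chaperones and import motor genes, Cryab and Bcs1l among them, 5 were higher and 7 lower. Their median log2 fold change was -0.011, with a count of 0 at an adjusted or unadjusted limma p below 0.05. The smallest p belonged to Dnaja3, a J protein partner of HSPA9, at 48.6 ± 0.832 and 51.0 ± 3.37 TPM (log2 fold change of 0.067). Dnajc15, Pam16 and Grpel2, all of the import motor, had log2 fold changes of -0.055, -0.049 and -0.056. Of 14 tested genes listed as other mitochondrial proteases, 9 were higher and 5 lower at a median of 0.021. Over all tested genes 6.10% passed the unadjusted threshold, and in this list 0 passed the adjusted and 1 the unadjusted one. The latter was Lactb2, which is known as a mitochondrial endoribonuclease and not as a protease, at 17.8 ± 1.11 and 19.98 ± 0.959 TPM (log2 fold change of 0.16, limma p of 0.0196, or 0.792 once adjusted). Mipep, Metap1d and Spg7 stood at 0.15, -0.17 and -0.063.

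Regulators and substrates of these proteases numbered 11, with 7 higher and 4 lower at a median of 0.019 and a count of 0 at the adjusted threshold. Tfam, the LONP1 substrate that packages mitochondrial DNA, held 24.9 ± 0.305 TPM in control and 27.1 ± 0.592 TPM in mutant libraries, and its groups did not overlap (log2 fold change of 0.12, limma p of 0.0124, or 0.780 once adjusted). Pink1, the kinase that marks damaged mitochondria, held 63.0 ± 4.33 and 57.6 ± 3.08 TPM (log2 fold change of -0.13, limma p of 0.0497, or 0.818 once adjusted). Opa1, cut by YME1L1 and OMA1, and Stoml2, a scaffold of YME1L1, had log2 fold changes of 0.062 and 0.049. Among 10 stress regulators tested, Atf4 alone passed the adjusted threshold. Atf5, a factor tied to the mitochondrial stress response in mammals, held 24.2 ± 1.56 TPM in control and 20.7 ± 2.37 TPM in mutant libraries, with overlap (log2 fold change of -0.22, limma p of 0.0220, or 0.800 once adjusted). Nfe2l2 and Eif2ak3 each stood at 0.11. The effector hormones Fgf21 and Gdf15 did not pass the expression filter.

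The chaperones of 2 other compartments were set beside the mitochondrial ones. Of 21 cytosolic chaperone genes 19 were higher and 2 lower, at a median of 0.027 and with a count of 0 at an adjusted or unadjusted p below 0.05. Stip1, Hspa4, Cct4 and Bag3 had the smallest p, with log2 fold changes of 0.050, 0.049, 0.056 and 0.11. In the endoplasmic reticulum list all 14 genes were higher, at a median of 0.092, where 48.2% of all tested genes were higher. Of the 14, 6 had an unadjusted limma p below 0.05 but 0 an adjusted one. Over all tested genes 2.65% were higher at an unadjusted p below 0.05. Manf, a secreted stress protein of that compartment, held 206 ± 12.3 and 231 ± 10.3 TPM (log2 fold change of 0.17, limma p of 0.00660, or 0.748 once adjusted). Pdia6, Pdia4 and Dnajc3 stood at 0.12, 0.12 and 0.11. The difference between compartments was not tested. A further list held 26 genes chosen for mitochondrial content, with transcription regulators such as Nrf1 among them. Its median was 0.010, 16 were higher and 10 lower, and the count was 0 at either threshold. Whether these transcripts follow mitochondrial content was not tested. The smallest p in this list belonged to Timm50 and Nrf1, at 0.12 and -0.10, followed by Atp5a1 and Tomm40 at 0.045 and 0.059.

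**Figure D4:**
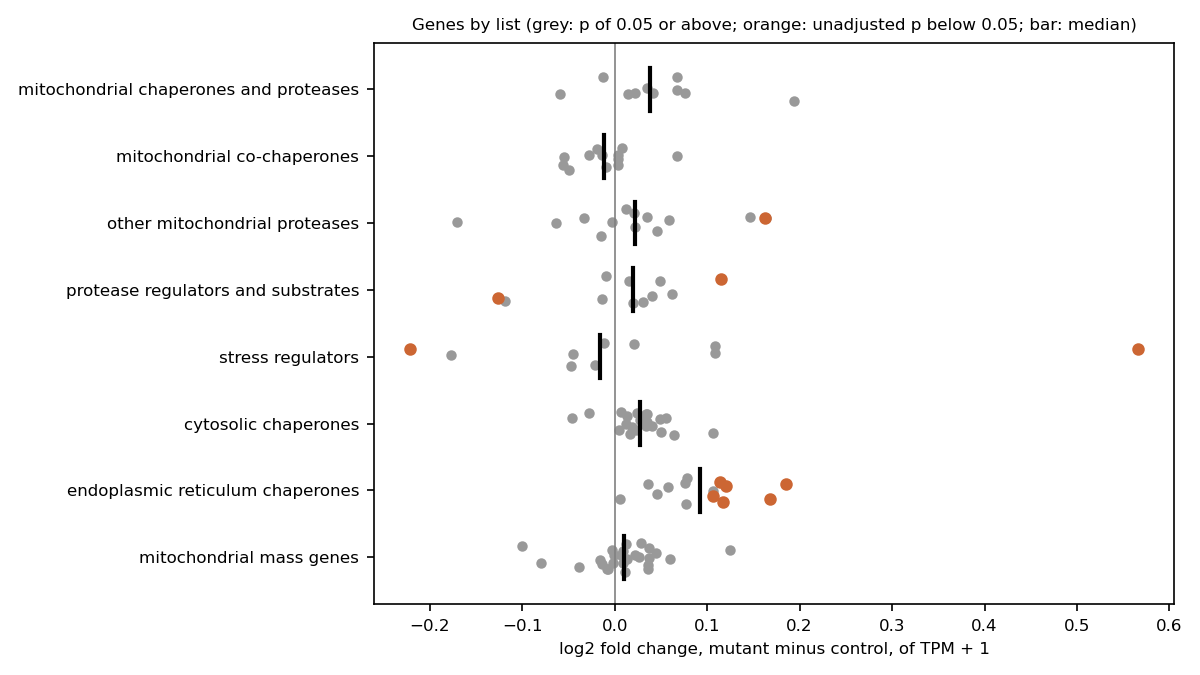
Log2 fold change (mutant minus control, TPM + 1) of each tested gene by list, with the list median as a black bar and genes with an unadjusted p below 0.05 in orange. The mitochondrial chaperones and proteases have a median of 0.038 and no orange point, and the isolated point at 0.57 is Atf4.

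The gene most like Hspd1 over the 8 libraries, among 11626 genes with a mean of at least 5 TPM, was Clcn3, a chloride and proton exchanger, with a Pearson r of 0.991. Kdelr2, the receptor that returns proteins to the endoplasmic reticulum, followed at 0.971 and Dnph1, a nucleotide hydrolase, at 0.965. These are the highest of many values over few libraries and are given as a description. Within the 10 genes, Hspa9 and Afg3l2 had the highest r with Hspd1, at 0.773 and 0.770, and Clpx the lowest, at -0.472. Hspe1 ranked 3666th of the 11626.

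The 10 transcripts summed to 1617 to 1759 TPM per control library and 1694 to 1782 TPM per mutant library. Control replicate 3 had the lowest sum and was the lowest control for 5 of the 10 genes, while control replicate 1 was the highest control for 7. Transcripts of the mitochondrial genome took the largest share of listed TPM in control replicate 3, at 15.0%, and the smallest in control replicate 1, at 12.9%. A fit rescaled without them and without haemoglobin genes gave log2 fold changes of 0.071 for Hspd1, 0.063 for Hspa9 and 0.0098 for Clpp. In the main fit these were 0.076, 0.068 and 0.015. The part of the mitochondrially encoded transcripts alone was not tested. The group means of their share were 13.9% ± 0.875 for controls and 13.5% ± 0.495 for mutants (SD, n = 4).

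Markers of cardiomyocytes were present and those of neurons mostly were not. All 10 genes listed as ventricular cardiomyocyte markers were present, though some of them mark cardiomyocytes of any chamber. They summed to 40988 to 43262 TPM in control and 40030 to 43048 TPM in mutant libraries. Of 10 neuronal markers 7 stayed below 1 TPM in every library, Slc17a7 and Neurod1 of cortical neurons among them, although the attached extraction protocol speaks of cortical neurons. Erythroid markers summed to 4671 to 7961 TPM in control and 4362 to 6071 TPM in mutant libraries, with 8 of 9 lower in the mutants. Of these, 2 were at an unadjusted limma p below 0.05, beside 3.45% of all tested genes lower at that threshold. Macrophage markers summed to 18.5 to 28.2 and 12.4 to 18.04 TPM, with 6 of 7 tested lower. Of these, 3 were at an unadjusted p below 0.05, beside the same 3.45%. All 6 epicardial, 8 endothelial and 7 cushion mesenchyme markers, and 5 of 6 atrial ones, were present, at sums whose ranges overlapped between the genotypes. At an unadjusted p below 0.05, 1 atrial marker was higher in the mutants, beside 2.65% of all tested genes. At that threshold 1 epicardial marker was lower, beside 3.45%, and the count was 0 for the endothelial and mesenchyme lists. The part of these cells in the values above was not tested, and in bulk tissue fewer cells of a type and less RNA per cell cannot be told apart. The listed TPM summed to 923473 to 949762 per library, and read depth is unknown, since TPM does not keep it.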

How the data were processed

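Bulk RNA-seq of 8 libraries (4 control, 4 Atf4 mutant) was analysed from 1 table of TPM deposited by the authors, with 1 column per library. The submitters' processing notes name FastQC, Trim Galore 0.6.7, HISAT2 2.2.1, StringTie 2.2.1, featureCounts, DESeq2 and the build GRCm38 (mm10), with no roles. The annotation, the strand setting and the treatment of reads with several matches are not given in the sources used here. Protocols disagree on library type: the design text names a stranded mRNA kit, and the sample protocol ribosomal RNA depletion. All 10 genes matched RefSeq GRCm38.p6 with identical start and end. Features reaching 1 TPM in 4 or more of the 8 libraries (15545 of 52778) were analysed as log2(TPM + 1) in limma 3.58.1 (R 4.3.3), with a variance trend, no covariate, two-sided p-values and Benjamini-Hochberg adjustment over all tested genes at 0.05. This fit was tested on simulated data. Python 3.11.15, pandas 2.3.3, numpy 2.4.6, scipy 1.17.1 and matplotlib 3.10.9 were used for permutation tests and plots. The p-values measure the spread between libraries, which are labelled as biological replicates.

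The members and lists were chosen with earlier results of these data known. In each list the genes past the adjusted threshold and the 4 with the smallest p are named, for the marker lists counts alone. For the gene with the smallest p, the 3 most correlated genes are named. Fgf21, Gdf15, the copies, overlapping features, ratio partners, the further HSP70 and HSP90 genes set beside them and neuronal markers were named after their values were seen. Alternatives changed the pseudocount (to 0.1), the filter (none, or 5 TPM), the scaling (median-of-ratios, quantile, or leaving out haemoglobin and mitochondrially encoded genes) and the fit (without the trend, with weights per library, with a replicate block), or left out each library. Summing members with their copies, and leaving out libraries from the relation of Hspd1 and Hspe1, were added after the data were seen.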

Additional observations from a re-analysis of the deposited data

Results flagged for a closer look

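In 84 groups of 4 libraries, over the 10 genes, Atf4, the named genes of the pathway lists and 4 ratios, 6 held a library far from the other 3 (Dixon's criterion at the 95% level). Chance gives this in about 1 in 20 groups, or 4.2 here. Clpx stood at 30.4 TPM in control replicate 2, above 26.5 to 27.0 TPM in the other controls. Dnajc15 reached 76.6 TPM in mutant replicate 4, where the other mutants held 65.9 to 67.4 TPM. Metap1d stood at 16.4 TPM in control replicate 2, below 18.6 to 18.7 TPM in the other controls. Manf reached 223.9 TPM in control replicate 1, where the other controls held 197 to 201 TPM. Nrf1 stood at 21.3 TPM in control replicate 3, below the 23.5 to 23.8 TPM of the other controls, and at 23.4 TPM in mutant replicate 1, above the 20.7 to 21.0 TPM of the other mutants. Oma1 in control replicate 3, the most distant library among the 10 genes by eye, did not reach this limit.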

How the results depend on the processing

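None of the 10 genes passed the adjusted threshold in any of 18 alternatives, where the lowest adjusted p was 0.740. Hspd1, Hspa9, Yme1l1, Lonp1, Afg3l2 and Oma1 stayed higher and Clpx lower in all 18. Signs turned only where 1 library was left out: Hspe1 ranged from -0.032 to 0.050, Clpp from -0.036 to 0.049 and Trap1 from -0.037 to 0.0096. The count at an unadjusted p below 0.05, 0 as reported, was 1 with median-of-ratios scaling, quantile normalization, rescaling without mitochondrially encoded and haemoglobin genes, and copies summed, and 0 to 2 with a library left out. Over all genes 412 were higher and 537 lower at that threshold in the main fit, of 15545. With median-of-ratios scaling 478 and 544 were, with quantile normalization 504 and 491, and after the rescaling 404 and 618 of 15508. With copies summed 413 and 537 of 15543 were, and without control replicate 1, where the count for the 10 was 2, 455 and 420 of 15374. The count of the 10 genes without overlap was 1 with median-of-ratios scaling and with copies summed, and 0 to 2 with a library left out. Hspd1 carried the counts for the 10 genes in the scaling and copy settings. Over all genes 253 were higher and 319 lower without overlap in the main fit, and 281 and 317 with median-of-ratios scaling. With copies summed 254 and 319 were. These counts over all genes rose with any library left out, to 571 and 452 of 15374 without control replicate 1. The adjusted call of Atf4 was lost in 12 of the 18, among them no filter, no variance trend, quantile normalization and the replicate block. The replicate block left the count for the 10 genes at 0 for either p threshold, and same-numbered libraries did not deviate together (correlations from -0.082 to 0.035). The r of Hspd1 and Hspe1 ranged from 0.270 to 0.532 with a library left out and was 0.463 with median-of-ratios scaling. TPM keeps no depth, so counting error is unknown.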

Other observations

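Hspd1-ps3, a processed copy of Hspd1, was measured as a feature of its own. It held 40.5 ± 5.81 TPM in control and 48.2 ± 9.24 TPM in mutant libraries (SD, n = 4), and on average 6.98% of the level of Hspd1. Its log2 fold change was 0.23 (limma adjusted p of 0.861). Whether these reads come from the copy or from the parent transcript was not tested.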
